A study of Gallus gallus with 13 samples.

Results

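The homeobox and T-box genes are transcription factor genes that record where in the embryo a cell came from. They were taken here by symbol: every gene whose probe set carries a single symbol beginning with HOXA, HOXB, HOXC, HOXD, DLX, MSX, PRRX, PITX, LHX, IRX, MEIS, PBX or TBX, or naming a member of the numbered family of SIX3 and SIX5, each represented by its brightest probe set. This gave 73 of the 13008 genes with such a probe set. For 3 of them only the letters match. HOXA10-AS is an antisense RNA of the HOXA cluster, TBXAS1 encodes thromboxane synthase, and HOXCDX1L lies beside CDX4 in the chicken annotation and has no HOX neighbour there. They stay in the counts of all 73 genes and out of the family counts, which leaves 70 homeobox and T-box genes.

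The samples are primary chicken embryo fibroblasts from White Leghorn embryos at day 10, grown at 41.5 °C for fewer than 10 passages in medium with insulin and zinc. The 13 arrays fall into 4 groups. Contact-inhibited and serum-starved cells (3 arrays) were grown to confluence and then deprived of serum, and they are called doubly arrested here. Contact-inhibited cells (4 arrays) reached confluence and had their complete medium renewed. Serum-starved cells (3 arrays) were growing cultures moved to medium with no serum. Cycling cells (3 arrays) were harvested in log-phase growth in complete medium with 5% serum. The design asks how each arrested state differs from growth. It also lets each gene be read array by array, to see whether its level follows the growth state or the single array. The labels call the arrays biological replicates and name no embryos. Every p-value therefore rests on the spread among these arrays, which may be technical.

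HOX genes lie in 4 clusters, and their order along a cluster follows the order in which they are switched on along the body and, for the 5′ members of HOXA and HOXD, along the limb. Fibroblasts are known to keep much of this code in culture. PRRX1, MSX, LHX9, PITX1 and several T-box genes mark limb and other mesenchyme, DLX5 and DLX6 lie side by side and act in branchial arch, limb ridge and bone, and MEIS and PBX proteins are partners of HOX proteins on DNA.

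The values are probe set signals (PLIER intensities on a linear scale), and changes are on log2(signal + 16), which understates the change of dim genes. Probe sets differ in brightness per transcript, so each gene is compared between groups and not with another gene. "Called" means a limma adjusted p under 0.05 over all 28270 probe sets tested. Of the 73 genes, 59 passed the filter on dim probe sets, a mean signal of 22.7. The other 14 were HOXA13, HOXB6, HOXB8, HOXC8, LHX2, LHX5, LHX6, PITX3, SIX6, TBX6, TBX10, TBX19, TBX20 and TBX22. The tested genes nearest the limit were LHX1, with a mean on this scale of 22.7, and TBX3 with 23.3. The nearest ones left out were TBX20 with 18.2 and LHX2 with 18.1.

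All 16 of the 17 fibroblast markers found on the array passed the filter. That does not tell cell types apart, since all 8 blood and macrophage and all 7 bone markers on the array passed it too. The summed signal of the fibroblast markers was 160639 to 168107 in doubly arrested, 161436 to 168454 in contact-inhibited, 155387 to 168577 in serum-starved and 130657 to 140457 in cycling cells. The arrays also differed in genes of the W chromosome, which only female birds carry. Over 22 W-linked probe sets, log2 levels averaged 6.11 to 6.16 in doubly arrested arrays, against 7.07 to 7.12 in cycling arrays. They averaged 7.19 to 7.30 in contact-inhibited replicates 2 to 4 but 6.28 in replicate 1, and 5.98 and 6.04 in serum-starved replicates 2 and 3 but 6.66 in replicate 1. The W-linked level therefore differed along with the groups, and contact-inhibited replicate 1 and serum-starved replicate 1 stood apart from the rest of their groups. HINTW, a W-linked gene, had a signal of 0 to 0.85 in doubly arrested arrays, against 2646 to 3358 in cycling arrays. It was 428, 0 and 3.08 in serum-starved replicates 1 to 3, and 84.3, 1311, 1188 and 1197 in contact-inhibited replicates 1 to 4. Effects of serum loss, in growing as well as in confluent cells, cannot be fully told apart from these W-linked differences. Neither can those of contact inhibition, since HINTW was lower in all contact-inhibited than in cycling arrays. Values from a fit with the W-linked level as a covariate are given beside many of the calls that it changes. Within groups that level varied mainly through those 2 arrays, so the covariate adjustment rests largely on them.

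Of the 59 genes tested, 24 differed somewhere among the 4 groups (limma moderated F test), which is 40.7%, against 40.1% of all probe sets tested. Contact-inhibited cells differed from cycling cells in 21 genes (background 34.8%), with 15 higher (18.8%) and 6 lower (16%). Serum-starved cells differed from cycling cells in 7 genes (16.7%), with 5 higher (10.1%) and 2 lower (6.53%). Doubly arrested cells differed from cycling cells in 12 genes (29.7%), with 9 higher (17.5%) and 3 lower (12.1%). Counted in either direction, these numbers of genes lie near or below the share over the whole array. The median log2 change over the 59 genes was 0.11, 0.04 and 0.03 for the contact-inhibited, serum-starved and doubly arrested states, beside 0.07, 0.05 and 0.05 over all probe sets.

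**Figure D1:**
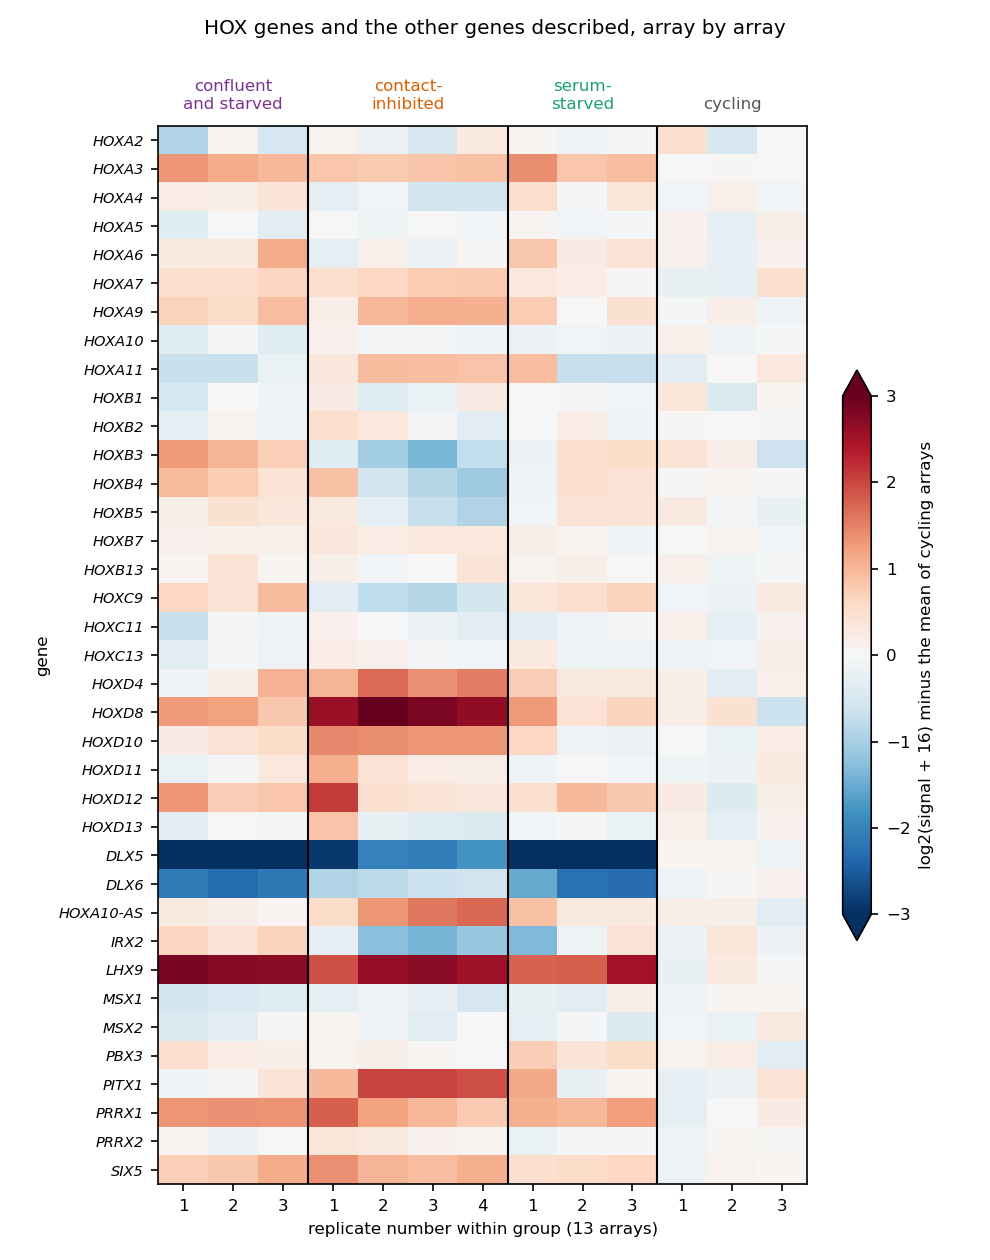
Each cell of the map is the log2(signal + 16) of a gene on 1 of 13 arrays minus the mean of its cycling arrays (colour scale from -3 to 3, red higher, blue lower), with arrays in columns by group and genes in rows. DLX5 and DLX6 are blue and LHX9, PRRX1, HOXA3 and SIX5 red on every arrested array, HOXD8, HOXD10 and HOXD4 are reddest in contact-inhibited arrays, and most other HOX rows stay pale.

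DLX5 had the largest change of the 59 genes, and it and its pair DLX6 fell in every arrested state. DLX5 encodes a homeodomain activator of bone and branchial arch genes. Its signal was 101, 70.6 and 75.3 in doubly arrested, 240.2, 458, 436 and 540.1 in contact-inhibited and 164, 87.0 and 69.2 in serum-starved arrays, against 1980.0, 2017 and 1717 in cycling arrays. No arrested array came near the cycling ones, and contact-inhibited arrays held an intermediate level above all 6 starved arrays. The log2 change against cycling cells was -4.30 ± 0.29 in doubly arrested cells (SE, adjusted p = 4.74e-07). It was -2.20 ± 0.27 in contact-inhibited cells (adjusted p = 4.94e-05). It was -4.04 ± 0.29 in serum-starved cells (adjusted p = 1.53e-06), a 16.5-fold loss. Removing serum from confluent cells lowered DLX5 further, by 2.10 ± 0.27 (adjusted p = 0.000167).

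DLX6, its neighbour on the chromosome, followed the same order. Its signal was 34.2, 27.9 and 33.6 in doubly arrested, 101, 111, 124 and 129 in contact-inhibited and 60.3, 30.5 and 29.0 in serum-starved arrays, against 181, 207 and 222 in cycling arrays. No group but the 2 starved ones overlapped. The log2 change was -2.19 ± 0.19 in doubly arrested, -0.73 ± 0.17 in contact-inhibited and -2.01 ± 0.19 in serum-starved cells, all called (adjusted p = 2.94e-06, 0.00541 and 1.15e-05). DLX5 and DLX6 have 2 probe sets each, and the values above are from the brighter one. Taken as a mean over both, the DLX5 changes were -2.17, -1.10 and -2.04 in the same order of groups, all still called. These are much smaller than the changes of the brighter DLX5 probe set, so the other one changed little in any arrested state. On the same mean DLX6 was no longer called in contact-inhibited cells (-0.29, adjusted p = 0.134). DLX1 and DLX3 were not called in any comparison, and DLX1 ranged from 57.0 to 109.9 and DLX3 from 23.4 to 52.2 over the 13 arrays.

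Marker sums of 4 other cell types (cardiac muscle, cartilage, skeletal muscle and epithelium) were lower in all arrested states as well, each with its own order among them. Sums for endothelium and for blood and macrophages went the other way. Endothelial sums were 2001 to 2279 in doubly arrested, 1443 to 2083 in contact-inhibited and 1600 to 1874 in serum-starved arrays, against 1213 to 1349 in cycling arrays. Blood and macrophage sums were 983 to 1246, 859 to 1062 and 694 to 919, against 666 to 688. The summed signal of 9 cardiac muscle markers was 1418 to 1798 in doubly arrested, 1265 to 10210.5 in contact-inhibited and 1458 to 1879.8 in serum-starved arrays, against 39413 to 73649 in cycling arrays. Nearly all of it was ACTC1, the cardiac actin gene. Of the 5 cardiac markers above the filter only ACTC1 was called, and NKX2-5, TNNT2, MYH7 and MYL2 were below it. For cartilage, the sum of 13 markers was 9992 to 12479 in doubly arrested, 12539 to 14729.6 in contact-inhibited and 8472 to 8679 in serum-starved arrays, against 15046 to 16279 in cycling arrays. COL2A1, the cartilage collagen gene, was 698 to 779.9 in doubly arrested, 817 to 981 in contact-inhibited and 579 to 773 in serum-starved arrays, against 9890 to 11111 in cycling arrays. HAPLN1, a link protein of cartilage matrix, was 154 to 266 in doubly arrested, 156 to 459.9 in contact-inhibited and 296 to 387 in serum-starved arrays, against 1136 to 1367 in cycling arrays. Most of the cycling sum was COL2A1, and other cartilage markers rose. COMP was 3709 to 10020 on arrested arrays, against 2121 to 2233 on cycling ones. Of 11 tested cartilage markers, 4 were called higher and 3 lower in doubly arrested and in serum-starved cells, and 7 and 2 in contact-inhibited cells. Over all probe sets the shares higher and lower were 17.5% and 12.1%, 10.1% and 6.53%, and 18.8% and 16%. Skeletal muscle and epithelial sums were not higher in contact-inhibited than in doubly arrested arrays, unlike DLX5 and DLX6. The sum of 12 skeletal muscle markers was 5055 to 5480.3 in doubly arrested, 1585 to 3597 in contact-inhibited and 2245 to 2874 in serum-starved arrays, against 5997 to 7814 in cycling arrays. Most of it was ACTA1, the skeletal actin gene, at 4423 to 4882, 982 to 2919 and 1645 to 2342, against 5430 to 7328. Of 9 skeletal muscle markers above the filter, 1 was called higher and 0 lower in doubly arrested cells (17.5% and 12.1% of all probe sets). In contact-inhibited cells 1 was higher and 2 lower (18.8% and 16%), and in serum-starved cells 0 and 1 (10.1% and 6.53%). For 9 epithelial markers the sum was 721 to 823 in doubly arrested, 709 to 815 in contact-inhibited and 952 to 968 in serum-starved arrays, against 1516 to 1969 in cycling arrays. Most of that difference came from KRT14, a keratin of basal epithelium, and CDH1 and EPCAM were below the filter in all groups. The part of these cells in the DLX values was not tested, and in bulk RNA fewer cells of a type and less RNA per cell cannot be told apart.

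A second set of genes was higher in all 3 arrested states. LHX9, a LIM homeobox gene of limb mesenchyme and gonad, gave 889.9, 825 and 808 in doubly arrested, 469, 773, 808 and 718 in contact-inhibited and 415, 422 and 712 in serum-starved arrays, against 91.6, 139 and 106 in cycling arrays. The lowest arrested array stood well above the highest cycling one. Its log2 change was 2.76 ± 0.23 in doubly arrested, 2.45 ± 0.22 in contact-inhibited and 2.03 ± 0.23 in serum-starved cells (adjusted p = 2.89e-06, 3.19e-06 and 6.98e-05). The other tested LHX genes, LHX1, LHX3 and LHX8, were not called in any of these comparisons.

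PRRX1, which marks limb bud and other early mesenchyme, was also higher in each. Its signal was 3351, 3462 and 3406 in doubly arrested, 4669, 3123, 2686 and 2317 in contact-inhibited and 2831, 2692 and 3236 in serum-starved arrays, against 1114, 1343 and 1597 in cycling arrays. No arrested array fell to the cycling range. On the log2 scale the change was 1.34 ± 0.20, 1.20 ± 0.19 and 1.11 ± 0.20 for doubly arrested, contact-inhibited and serum-starved cells (adjusted p = 0.000342, 0.000342 and 0.00243). With the W-linked level as a covariate the doubly arrested and serum-starved values fell to 0.73 (adjusted p = 0.0542) and 0.56 (adjusted p = 0.131). Its relative PRRX2 was not called, with 781 to 1163 over the 13 arrays.

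HOXA3, a HOX gene of the neck and pharyngeal region, was also higher in each arrested state. Its signal was 378, 324 and 292 in doubly arrested, 265, 252, 266 and 273 in contact-inhibited and 398, 264 and 280.0 in serum-starved arrays, against 139, 144 and 138 in cycling arrays. The cycling arrays were closely grouped below all the others. The log2 change was 1.14 ± 0.16, 0.84 ± 0.15 and 1.05 ± 0.16 (adjusted p = 0.000140, 0.000642 and 0.000493) for doubly arrested, contact-inhibited and serum-starved cells.

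SIX5, a homeobox gene of somite derivatives, was also higher in each arrested state. Its signal was 551, 587 and 732 in doubly arrested, 872, 683, 642 and 714 in contact-inhibited and 476, 492 and 514 in serum-starved arrays, against 293, 353 and 343 in cycling arrays. All arrested arrays lay above the cycling ones. The log2 changes were 0.88 ± 0.15, 1.10 ± 0.14 and 0.56 ± 0.15 (adjusted p = 0.000651, 5.19e-05 and 0.0187) for doubly arrested, contact-inhibited and serum-starved cells. The serum-starved call was lost without serum-starved replicate 2 (adjusted p = 0.0552) or 3 (0.0738) or cycling replicate 1 (0.0645), and it was 0.14 (adjusted p = 0.420) as a mean over the probe sets of the gene, where the contact-inhibited value was 0.28 (0.0483) and the doubly arrested value 0.30. With the W-linked level as a covariate the serum-starved value was 0.31 (adjusted p = 0.325) and the doubly arrested value 0.60 (adjusted p = 0.0581). SIX3, a forebrain and eye gene, was lower in contact-inhibited cells, at 40.1, 40.8, 48.3 and 39.3 against 112, 108 and 49.6 in cycling cells, but cycling replicate 3 lay close to the contact-inhibited arrays. The log2 change was -0.80 ± 0.23 (adjusted p = 0.0144), and it missed the threshold without cycling replicate 1 (-0.64, adjusted p = 0.0686) or replicate 2 (-0.66, adjusted p = 0.0638).

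**Figure D2:**
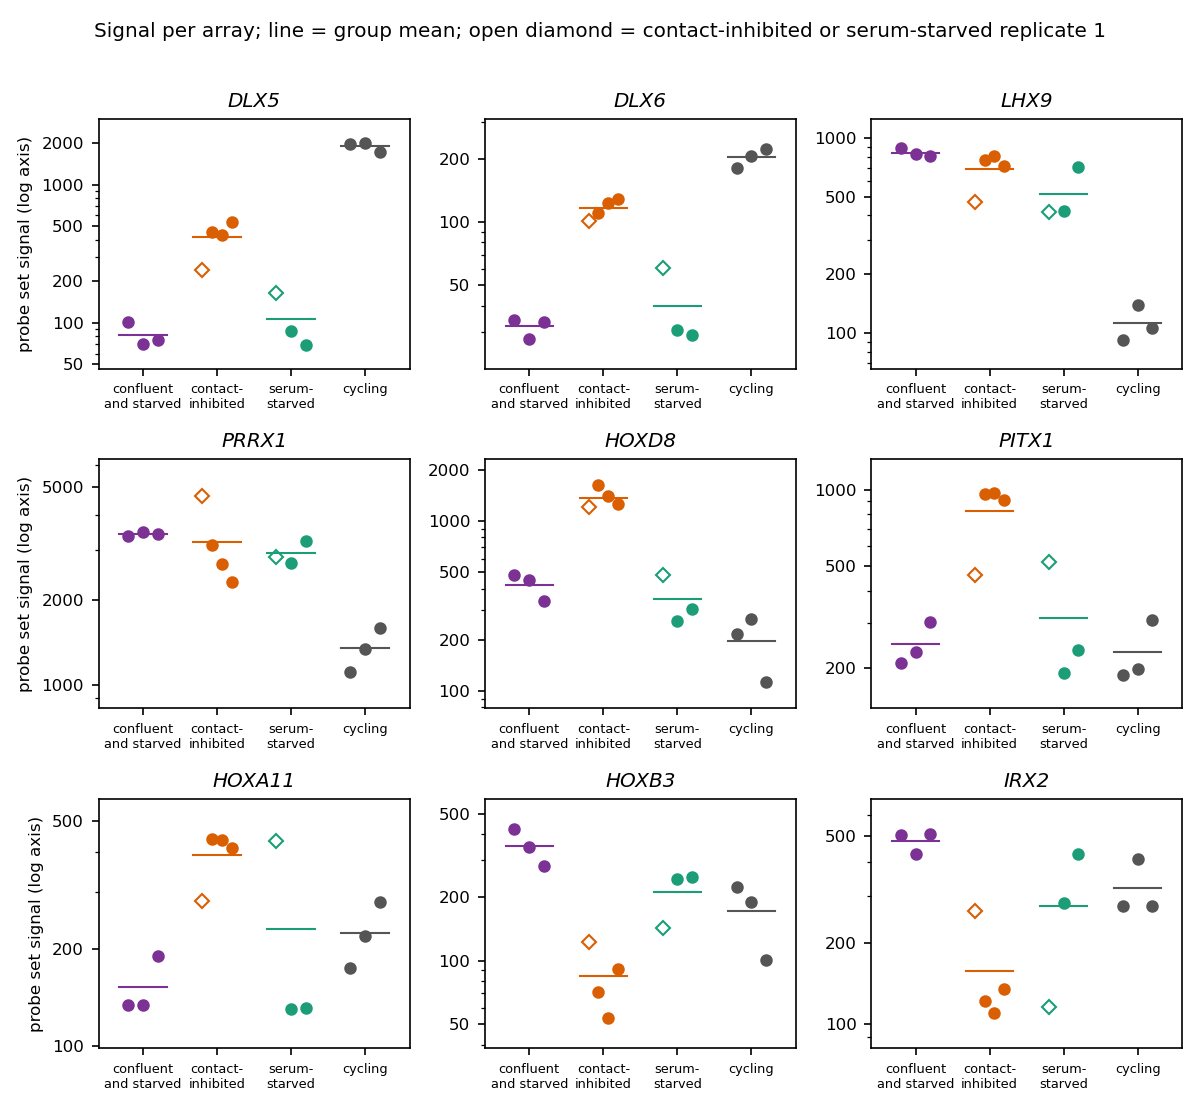
Probe set signal (log axis) of 9 genes on each array by group, with a line at the group mean and an open diamond for replicate 1 of the contact-inhibited and of the serum-starved group. The groups separate for DLX5 (at most 540.1 on arrested arrays, at least 1717 on cycling ones), LHX9 and PRRX1, and the diamonds leave their groups for PITX1, HOXA11 and IRX2. The confluent and starved group on the axis is the doubly arrested one.

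The HOX genes did not move as a block. Against cycling cells, contact-inhibited cells had 3 of 9 tested HOXA genes, 0 of 7 HOXB, 0 of 3 HOXC and 3 of 6 HOXD genes higher, against 18.8% of all probe sets. They had 0 HOXA, 1 HOXB, 1 HOXC and 0 HOXD genes lower, against 16%. Serum-starved cells had 1 HOX gene higher, HOXA3, and no HOX gene lower, with HOXD8 and HOXC9 the nearest to the threshold, against 10.1% and 6.53% of all probe sets. Doubly arrested cells had 3 HOXA, 1 HOXB, 1 HOXC and 1 HOXD genes higher and none lower, against 17.5% and 12.1%.

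**Figure D3:**
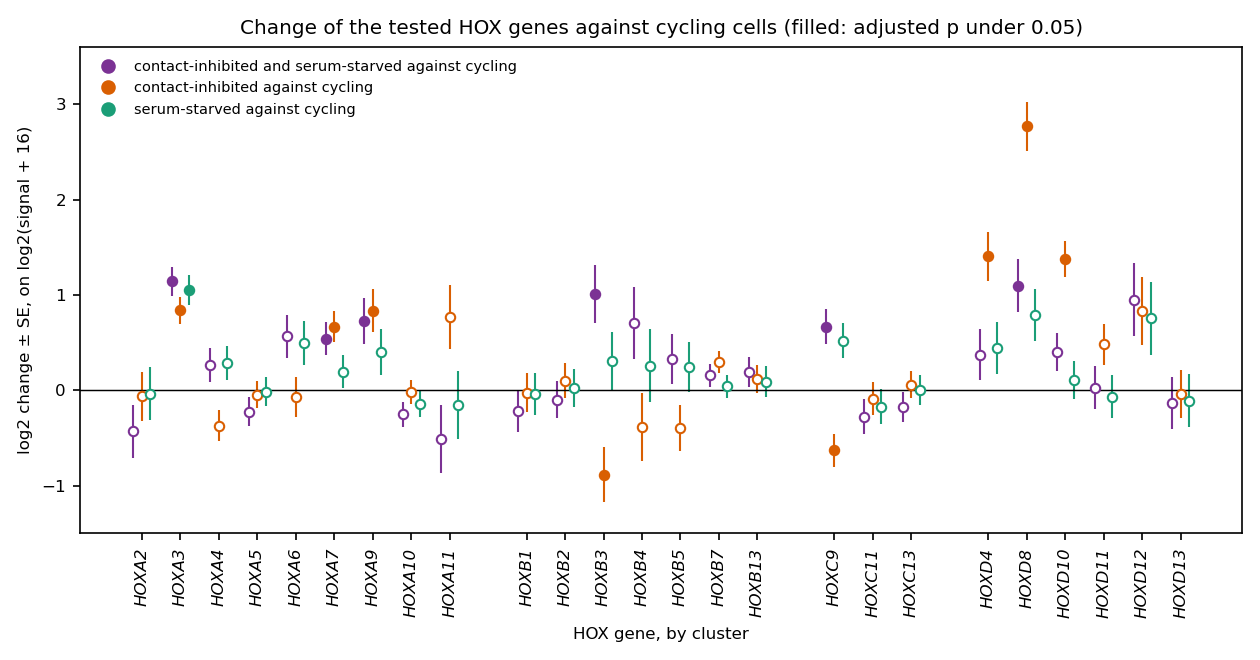
The log2 change (points, with SE bars) of the 25 tested HOX genes in each arrested state against cycling cells, ordered along each cluster, with filled points for an adjusted p under 0.05. HOXD8 in contact-inhibited cells is the highest point at 2.77, HOXA3 is the only gene filled in all 3 comparisons, and HOXB3 and HOXC9 lie below 0 in contact-inhibited and above 0 in doubly arrested cells.

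The HOXD cluster, whose 5′ genes act in limb and tail, had 3 of its 6 tested genes higher in contact-inhibited than in cycling cells. HOXD8 gave 479, 449 and 339 in doubly arrested, 1210.2, 1617, 1408 and 1257 in contact-inhibited and 479, 256 and 304 in serum-starved arrays, against 215, 264 and 113 in cycling arrays. All 4 contact-inhibited arrays stood above every other array, replicate 1 included. The log2 change was 2.77 ± 0.26 in contact-inhibited cells (adjusted p = 4.46e-06) and 1.10 ± 0.28 in doubly arrested cells (adjusted p = 0.00919). In serum-starved cells it was 0.79 ± 0.28 (adjusted p = 0.0676), and it was called without cycling replicate 2 (1.02, adjusted p = 0.0290).

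HOXD10, a gene of the distal limb, was 163, 183 and 205 in doubly arrested, 394, 382, 361 and 364 in contact-inhibited and 217, 120.0 and 117 in serum-starved arrays, against 132, 114 and 160.3 in cycling arrays. The 4 contact-inhibited arrays lay close together and above all others. The change in contact-inhibited cells was 1.38 ± 0.19 (adjusted p = 9.81e-05). HOXD4, a 3′ gene of the cluster that acts in the neck, gave 54.9, 69.6 and 139.7 in doubly arrested, 138, 231, 178 and 203 in contact-inhibited and 111, 75.8 and 76.6 in serum-starved arrays, against 69.6, 44.5 and 67.7 in cycling arrays. One doubly arrested array reached the contact-inhibited range. The change in contact-inhibited cells was 1.41 ± 0.25 (adjusted p = 0.000876).

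The most 5′ genes of the cluster, which act in the hand and foot plate, were not called against cycling cells with all arrays weighted equally and no covariate or replicate block. HOXD11 ranged from 125 to 324, HOXD12 from 25.8 to 223 and HOXD13 from 42.7 to 125 over the 13 arrays, and in all 3 the highest array was contact-inhibited replicate 1. HOXD12 was 121, 77.0 and 83.0 in doubly arrested, 223, 62.5, 58.6 and 54.3 in contact-inhibited and 61.6, 94.6 and 82.2 in serum-starved arrays, against 50.3, 25.8 and 47.1 in cycling arrays. Every arrested array lay above the cycling ones, and the adjusted p was 0.0782, 0.0892 and 0.207 for doubly arrested, contact-inhibited and serum-starved cells. Without contact-inhibited replicate 1, HOXD12 was called in doubly arrested (0.95, adjusted p = 0.00375) and serum-starved cells (0.76, adjusted p = 0.0211). HOXD11 was called in contact-inhibited cells without cycling replicate 3 (0.63, adjusted p = 0.0434). HOXD12 was also called in contact-inhibited cells with the W-linked covariate (0.68, adjusted p = 0.0194), and HOXD13 was then lower in doubly arrested cells (-0.98, 0.0487). With array weights HOXD12 was called in doubly arrested (0.84, adjusted p = 0.00491) and serum-starved cells (0.83, 0.0178), and HOXD11 in contact-inhibited cells (0.42, 0.0218). A replicate block gave a call of HOXD12 in contact-inhibited cells (1.00, adjusted p = 0.0492).

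In the HOXA cluster, HOXA7 and HOXA9, genes of the trunk, were called higher in the 2 confluent states. HOXA7 was 1155, 1154 and 1301 in doubly arrested, 1176, 1266, 1399.8 and 1419 in contact-inhibited and 1026, 962 and 840.1 in serum-starved arrays, against 699, 691 and 1144 in cycling arrays. Cycling replicate 3 almost met the confluent arrays. The change was 0.54 ± 0.17 in doubly arrested (adjusted p = 0.0313) and 0.67 ± 0.16 in contact-inhibited cells (adjusted p = 0.00614). HOXA9 was 335, 300.0 and 393 in doubly arrested, 233, 412, 441 and 434 in contact-inhibited and 348, 199 and 279.6 in serum-starved arrays, against 190.2, 231 and 182 in cycling arrays. Contact-inhibited replicate 1 lay only just above the cycling range. The change was 0.72 ± 0.24 in doubly arrested (adjusted p = 0.0381) and 0.83 ± 0.23 in contact-inhibited cells (adjusted p = 0.0117). Both doubly arrested calls lay near the threshold and were lost when any 1 of several arrays was left out. HOXA7 lost its call without any 1 of the 3 doubly arrested arrays or without cycling replicate 1 or 2 (adjusted p from 0.0622 to 0.112), and with the W-linked covariate (adjusted p = 0.0729). HOXA9 lost it without any doubly arrested array, without cycling replicate 1 or 3 or without serum-starved replicate 3 (adjusted p from 0.0504 to 0.121). Centring arrays on their medians ended both (adjusted p = 0.126 for HOXA7 and 0.0670 for HOXA9), and as a mean over its probe sets HOXA9 was 0.32 (adjusted p = 0.267). Serum-starved cells gave a change of 0.19 ± 0.17 for HOXA7, called without cycling replicate 3 (0.43, adjusted p = 0.0426), and of 0.40 ± 0.24 for HOXA9, called with the W-linked covariate (1.15, 0.00536).

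HOXA11, a gene of the forearm and lower leg, split by array more than by group. Its signal was 134, 134 and 190.1 in doubly arrested, 283, 440.4, 438 and 413 in contact-inhibited and 433, 130.5 and 131 in serum-starved arrays, against 175, 220.1 and 279.7 in cycling arrays. Serum-starved replicate 1 matched contact-inhibited replicates 2 to 4, while the other serum-starved arrays matched the doubly arrested ones. HOXA11 was not called against cycling cells (contact-inhibited 0.77 ± 0.33, adjusted p = 0.0933). Without serum-starved replicate 1 the same contact-inhibited value was called (adjusted p = 0.00983), and it was also called with the W-linked covariate (0.88, 0.0166).

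HOXA10-AS, the antisense RNA, was 481, 464 and 417 in doubly arrested, 589, 1027, 1229 and 1356 in contact-inhibited and 755, 482 and 494 in serum-starved arrays, against 453, 450.1 and 313 in cycling arrays. Contact-inhibited replicates 2 to 4 were the highest, and replicate 1 lay below serum-starved replicate 1. The change in contact-inhibited cells was 1.29 ± 0.25 (adjusted p = 0.00151). With the W-linked covariate it was also called in doubly arrested (1.18, adjusted p = 0.00370) and serum-starved cells (1.39, 0.00126). HOXA10 itself, on another probe set, was 307 to 449.9 over the 13 arrays and was not called. As a mean over its probe sets it was called in contact-inhibited cells (0.38, adjusted p = 0.00504), against -0.02 ± 0.13 for the brightest one. Of the other HOXA genes, HOXA2 ranged from 48.7 to 153, HOXA4 from 69.3 to 168, HOXA5 from 57.5 to 90.2 and HOXA6 from 431 to 1168, none of them called against cycling cells with the brightest probe set, equal array weights and no rescaling. HOXA6 was called as a mean over its probe sets, at 0.38 (adjusted p = 0.0408) in doubly arrested and -0.49 (0.00699) in contact-inhibited cells. HOXA4 was called lower in contact-inhibited cells once arrays were centred (-0.49, adjusted p = 0.0362) or quantile normalized (-0.48, 0.0342).

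HOXB3 and HOXC9 were called in both confluent states, higher in the doubly arrested and lower in the contact-inhibited one. Some settings ended both HOXB3 calls and the doubly arrested call of HOXC9. The contact-inhibited call of HOXC9 was kept under every alternative setting run. HOXB3, a gene of hindbrain and neck, was 423, 349 and 280.4 in doubly arrested, 123, 70.9, 53.2 and 91.1 in contact-inhibited and 144, 244 and 249 in serum-starved arrays, against 224, 189.9 and 101 in cycling arrays. Doubly arrested arrays were the highest of all, and contact-inhibited replicate 1 overlapped the cycling range. The change was 1.01 ± 0.31 in doubly arrested (adjusted p = 0.0240) and -0.88 ± 0.29 in contact-inhibited cells (adjusted p = 0.0284). The doubly arrested call was lost without doubly arrested replicate 1 (0.87, adjusted p = 0.0916), replicate 2 (1.00, 0.0636) or cycling replicate 3 (0.70, 0.0828), and with the W-linked covariate (0.29, 0.673). The contact-inhibited call did not hold without contact-inhibited replicate 2 (-0.83, adjusted p = 0.0676) or 3 (-0.72, 0.0823), or cycling replicate 1 (-0.68, 0.120) or 2 (-0.79, 0.0882). As a mean over the probe sets of HOXB3 neither was called, at 0.35 (adjusted p = 0.211) in doubly arrested and -0.49 (0.0578) in contact-inhibited cells.

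HOXC9, a gene of the trunk, was 349.9, 306 and 444 in doubly arrested, 172, 124, 116 and 147 in contact-inhibited and 289.9, 327 and 365 in serum-starved arrays, against 208, 194 and 273 in cycling arrays. All 4 contact-inhibited arrays lay below the cycling ones and all 6 starved arrays above them. The change was 0.67 ± 0.19 in doubly arrested (adjusted p = 0.0157), -0.63 ± 0.17 in contact-inhibited (adjusted p = 0.0125) and 0.52 ± 0.19 in serum-starved cells (adjusted p = 0.0735). The doubly arrested call was lost without doubly arrested replicate 3 (0.53, adjusted p = 0.0717) or cycling replicate 2 (0.57, 0.0563) and with the W-linked covariate (0.29, 0.465). The serum-starved value was called without cycling replicate 3 (0.66, adjusted p = 0.0308) or contact-inhibited replicate 1 (0.52, 0.0470).

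HOXB4 and HOXB5, of the same cluster as HOXB3, were low in contact-inhibited replicates 2 to 4 and not in replicate 1. HOXB4 was 114, 99.0 and 74.3 in doubly arrested, 109.8, 30.7, 21.6 and 16.6 in contact-inhibited and 46.0, 78.1 and 75.8 in serum-starved arrays, against 50.4, 56.1 and 49.3 in cycling arrays. Its contact-inhibited change was -0.39 ± 0.36 (adjusted p = 0.431) with all arrays and -0.82 (adjusted p = 0.00604) without replicate 1, and its doubly arrested change was then called too (0.71, adjusted p = 0.0147). The serum-starved change of HOXB4 was 0.26 ± 0.38 (adjusted p = 0.698) without the W-linked covariate and -1.07 (0.0244) with it, and the contact-inhibited one was -0.55 (0.0255) with it. HOXB5 was 60.4, 35.2, 23.0 and 17.4 in contact-inhibited, against 59.7, 44.3 and 37.2 in cycling arrays, and its change was -0.39 ± 0.24 (adjusted p = 0.234) with all arrays and -0.62 (adjusted p = 0.0263) without replicate 1. The HOXB5 change was also called with the W-linked covariate (-0.49, adjusted p = 0.0336). The remaining tested HOXB and HOXC genes were not called against cycling cells in the fit used throughout: HOXB1 ranged from 41.0 to 89.6, HOXB2 from 169 to 313, HOXB7 from 108 to 152, HOXB13 from 59.8 to 96.8, HOXC11 from 28.8 to 63.0 and HOXC13 from 34.8 to 62.1. HOXB7 was 141 to 152 in contact-inhibited, against 111 to 125 in cycling arrays. This change of 0.30 was called with a filter at the median (adjusted p = 0.0424) or eBayes without trend (0.0370). Array weights (0.28, adjusted p = 0.0384) and the W-linked covariate (0.30, 0.0468) also gave a call.

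PITX1, which gives the hindlimb its identity, was called in contact-inhibited cells. Its signal was 208, 230.0 and 301 in doubly arrested, 460.0, 963, 969 and 908 in contact-inhibited and 518, 189.9 and 234 in serum-starved arrays, against 188, 197 and 308 in cycling arrays. Contact-inhibited replicate 1 was at about the level of serum-starved replicate 1, between the other contact-inhibited arrays and the rest. The log2 change in contact-inhibited cells was 1.74 ± 0.33 (adjusted p = 0.00115), and in doubly arrested and serum-starved cells 0.11 ± 0.35 and 0.32 ± 0.35 (adjusted p = 0.850 and 0.583). With the W-linked covariate those last 2 were called, at 1.33 (adjusted p = 0.0186) and 1.42 (0.0129), although the signals of both groups overlapped the cycling ones.

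Of the T-box genes, 4 of 8 tested were higher (18.8% of all probe sets) and none lower under contact inhibition, and none was called in serum-starved or doubly arrested cells. TBX15, a gene of limb and dorsal dermal mesenchyme, was 176, 197, 171 and 177 in contact-inhibited, against 113, 111 and 89.0 in cycling arrays, a change of 0.71 ± 0.18 (adjusted p = 0.00711). TBXT, the brachyury gene of the notochord, was 136, 116, 134 and 105 in contact-inhibited, against 87.0, 79.4 and 83.9 in cycling arrays (0.47 ± 0.12, adjusted p = 0.00922). TBX5, the forelimb gene, and TBX18, a gene of somite and heart mesenchyme, had smaller margins. TBX5 was 74.8, 77.4, 70.6 and 58.2 in contact-inhibited, against 43.5, 41.8 and 58.1 in cycling arrays (0.44 ± 0.14, adjusted p = 0.0303). TBX18 was 134, 123, 99.7 and 66.9 in contact-inhibited, against 68.7, 52.0 and 57.9 in cycling arrays (0.66 ± 0.22, adjusted p = 0.0336), and contact-inhibited replicate 4 lay within the cycling range. TBX5 lost its call without contact-inhibited replicate 1, 2 or 3 or cycling replicate 1 or 2 (adjusted p from 0.0560 to 0.108). TBX18 lost it without contact-inhibited replicate 1, 2 or 3 or cycling replicate 2 or 3 (adjusted p of at least 0.0582). Only TBX15 of the 4 stayed called when arrays were centred on their medians or quantile normalized. TBX5 then stood at 0.32 in both (adjusted p = 0.153 and 0.150), TBX18 at 0.54 and 0.56 (0.0704 and 0.0679) and TBXT at 0.36 and 0.38 (0.0628 and 0.0578). As a mean over its probe sets TBX5 was 0.17 (adjusted p = 0.218). TBX4, the hindlimb T-box gene, ranged from 11.6 to 71.8 and was not called, and TBX1, TBX2 and TBX3 were not called either.

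Markers of bone and cartilage stood beside these contact-inhibited values. The summed signal of 7 bone markers was 1322 to 1903 in contact-inhibited, against 836 to 1093 in cycling arrays, with SPP1 (osteopontin) the largest part of the difference and 3 of the 7 called higher (18.8% of all probe sets). Of 11 tested cartilage markers, 7 were higher and 2 lower in contact-inhibited cells (18.8% and 16% of all probe sets), among them ACAN (aggrecan) higher and COL2A1 lower. The part of such cells in the HOXD, PITX1 and T-box values was not tested.

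The MSX genes, partners of BMP signalling in limb and skull mesenchyme, were mostly not called. MSX1 was 1361, 1469 and 1545 in doubly arrested, 1684, 1824, 1709 and 1434 in contact-inhibited and 1753, 1636 and 2319 in serum-starved arrays, against 1828, 2125 and 2162 in cycling arrays. Only doubly arrested cells were called, at -0.48 ± 0.14 (adjusted p = 0.0196). With the W-linked covariate the adjusted p was 0.0846, and the call was lost without doubly arrested replicate 1 (-0.43, adjusted p = 0.0731) or 2 (-0.48, 0.0524) or cycling replicate 2 (-0.44, 0.0562) or 3 (-0.43, 0.0508). MSX2 ranged from 724 to 1161 over the 13 arrays and was not called.

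The HOX partner genes gave 1 call. PBX3 was 1073, 834 and 943 in serum-starved, against 689, 748 and 502 in cycling arrays, a change of 0.56 ± 0.16 (adjusted p = 0.0289). That call did not hold without cycling replicate 3 (0.39, adjusted p = 0.0933), serum-starved replicate 1 (0.47, 0.0968) or serum-starved replicate 3 (0.56, 0.0851), nor with the W-linked covariate (adjusted p = 0.0851). PBX4, MEIS1 and MEIS2 were not called, with 105 to 172 for PBX4, 49.2 to 124 for MEIS1 and 211 to 495 for MEIS2.

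IRX2, an Iroquois gene of limb and neural tissue, varied widely within groups. Its signal was 504, 429.5 and 509 in doubly arrested, 262, 122, 109.8 and 136 in contact-inhibited and 116, 282 and 428 in serum-starved arrays, against 275, 413 and 275 in cycling arrays. The 3 serum-starved arrays spanned almost the whole range of the gene. The change in contact-inhibited cells was -1.01 ± 0.35 (adjusted p = 0.0413), a call lost without any doubly arrested array, without contact-inhibited replicate 2, 3 or 4, without cycling replicate 1 or 2, or without serum-starved replicate 2 (adjusted p from 0.0523 to 0.139). The serum-starved change of IRX2 was -0.35 ± 0.38 (adjusted p = 0.579), and -1.53 (0.0143) with the W-linked covariate. IRX1, IRX4 and IRX5 were not called against cycling cells.

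Removing serum from confluent cells changed 16 of the 59 genes (background 17.2%), with 4 higher (10.6%) and 12 lower (6.59%). PITX1 changed by -1.64 ± 0.33 (adjusted p = 0.00394) and HOXD8 by -1.67 ± 0.26 (0.000621). HOXA11 changed by -1.28 ± 0.33 (0.0183) and HOXA10-AS by -1.12 ± 0.25 (0.00826). HOXD4 changed by -1.03 ± 0.25 (0.0134) and HOXD10 by -0.97 ± 0.19 (0.00300). The others lower were DLX5, DLX6, TBX15, TBXT, IRX4 and HOXCDX1L.

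The 4 genes higher in doubly arrested than in contact-inhibited cells were HOXB3, IRX2, HOXC9 and HOXA4. HOXB3 changed by 1.90 ± 0.29 (adjusted p = 0.000535), HOXC9 by 1.30 ± 0.17 (0.000205) and IRX2 by 1.59 ± 0.35 (0.00754). HOXA4 was 134, 128 and 152 in doubly arrested, against 89.8, 105, 69.3 and 70.9 in contact-inhibited arrays (0.64 ± 0.17, adjusted p = 0.0174). HOXA4 lost its call without doubly arrested replicate 1 (0.66, adjusted p = 0.0502) or 3 (0.58, 0.0731) or contact-inhibited replicate 3 (0.57, 0.0537). DLX5, DLX6, HOXB3, HOXC9 and HOXD8 kept this call under every alternative setting run.

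With the W-linked level as a covariate, 9 of the 59 genes were called in this comparison (16.3% of all probe sets), 5 of the 16 above and 4 others. Among the others were HOXA6 (0.99, adjusted p = 0.0413), HOXD11 (-1.02, 0.0167) and HOXD12, whose sign turned (0.12 ± 0.36 without the covariate, -1.14 with it, adjusted p = 0.0250). PITX1 then stood at -0.54 (adjusted p = 0.263), HOXA11 at -0.32 (0.625), HOXA10-AS at -0.22 (0.512), HOXD4 at -0.54 (0.340), TBX15 at -0.43 (0.266) and IRX2 at 0.41 (0.452). HOXD10 stood at -0.74 (adjusted p = 0.0875), HOXA4 at 0.70 (0.0846) and TBXT at -0.54 (0.0636). IRX4 stood at -0.44 (adjusted p = 0.0932) and HOXCDX1L at -0.19 (0.527). HOXD8 (-1.21, adjusted p = 0.0407), HOXB3 (1.25, 0.0421), HOXC9 (0.96, 0.0153), DLX5 (-1.13, 0.00447) and DLX6 (-1.05, 0.00755) stayed called. Other calls that single arrays decided here were those of HOXA11, lost without doubly arrested replicate 1 or 2 (-1.20, adjusted p = 0.0723 and 0.0719), and HOXD4, lost without the same arrays (-0.80 and -0.93, adjusted p = 0.0771 and 0.0635). TBXT lost its call without any doubly arrested array or contact-inhibited replicate 3 (adjusted p from 0.0551 to 0.0915). IRX4 lost it without any doubly arrested array or contact-inhibited replicate 2 (0.0534 to 0.101). HOXCDX1L lost it without doubly arrested replicate 2 or 3, contact-inhibited replicate 2, 3 or 4, cycling replicate 1 or 2, or serum-starved replicate 3 (0.0518 to 0.158).

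Doubly arrested and serum-starved cells were not told apart by any of the 59 genes with limma (background 0.962%), while 4 had an unadjusted p under 0.05. With array weights 5 were called, where 13.1% of all probe sets were. Without cycling replicate 3 and contact-inhibited replicate 1 it was 1, beside 7.14% of all probe sets. The effect of serum removal in confluent cells minus that in growing cells, an interaction, was called for 12 genes (background 10.8%). DLX5 had a positive interaction of 1.94 ± 0.40 (adjusted p = 0.00822), the loss under serum removal being smaller in confluent cells. HOXD8 had one of -2.46 ± 0.38 (0.00130) and LHX9 of -1.72 ± 0.32 (0.00449). These 3 were called under every alternative setting. HOXB4 (0.84, adjusted p = 0.0410) and HOXC9 (0.78, 0.0356) gained an interaction call with the W-linked covariate. The other 9, HOXA3, HOXA10-AS, HOXB3, HOXD4, HOXD10, IRX2, PITX1, PRRX1 and SIX5, each lost the call under at least 1 setting. The count of 12 fell to 5 without doubly arrested replicate 1 (6.83% of all probe sets) and to 4 without replicate 2 (6.90%). It fell to 6 without cycling replicate 2 (9.02%).

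Read array by array, the positional genes, each by its brightest probe set, varied within groups slightly more than all probe sets tested. The range over arrays of 1 group reached 1 log2 unit for 17 of the 59 genes (28.8%), against 20% of all probe sets tested. For several of them, among them HOXB4, HOXD12, HOXD13, LHX8 and MEIS2, the widest group was the contact-inhibited one, where replicate 1 lay apart. The median residual SD was 0.234 for the 59 genes and 0.215 for all probe sets. The range of the 4 group means exceeded the widest range within a group for 20 of 59 genes (33.9%), against 35.6% of all probe sets.

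Contact-inhibited replicate 1 had the most genes apart from their group. It lay at least 2-fold from the mean of the other arrays of its group for 8 of 59 genes (13.6%), against 3.65% of all probe sets. HOXB4, HOXD12, HOXD13 and IRX2 were higher in it and HOXA10-AS, LHX8, MEIS2 and PITX1 lower. Serum-starved replicate 1 did so for HOXA11, IRX2 and PITX1, 3 of 59 genes, against 1.46% of all probe sets. Serum-starved replicate 3 did so for IRX2 alone. Cycling replicate 3, which stood apart over the whole array with 9.74% of probe sets, did so for none of the 59 genes. With both odd first replicates left out, the contact-inhibited changes against cycling cells were -1.96 for DLX5, 2.63 for LHX9, 2.82 for HOXD8, 1.35 for HOXD10 and 2.00 for PITX1, all called.

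**Figure D4:**
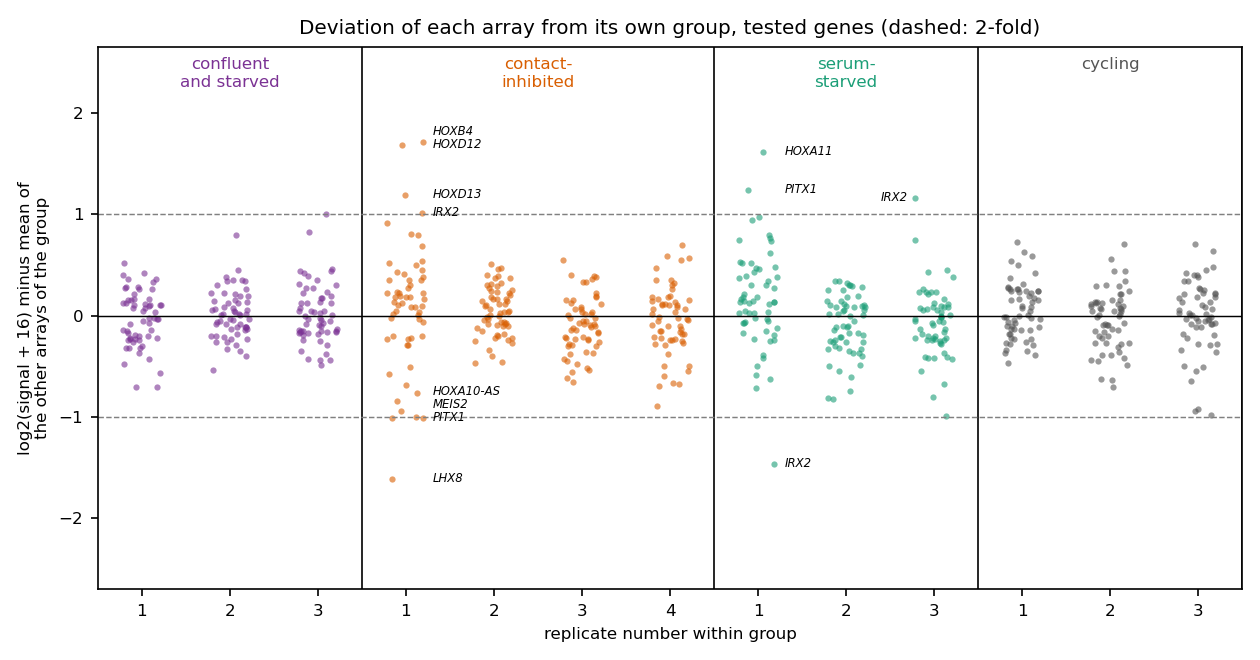
Each point is 1 of the 59 tested genes on 1 array, as log2(signal + 16) minus the mean of the other arrays of its group, with dashed lines at a 2-fold difference and names for the genes beyond them. Contact-inhibited replicate 1 has 8 genes beyond the lines, serum-starved replicate 1 has 3, serum-starved replicate 3 has 1, and no other array has any.

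Other genes of positional identity and of the signals that set it were read from lists, with signals as mean ± SD and log2 changes ± SE. Of 39 tested transcription factors of position outside the families above, 6 were higher and 4 lower in contact-inhibited, 6 and 4 in serum-starved, and 8 and 3 in doubly arrested than in cycling cells. Over all probe sets the shares higher and lower were 18.8% and 16% in contact-inhibited, 10.1% and 6.53% in serum-starved, and 17.5% and 12.1% in doubly arrested cells. ZIC1, a gene of neural tube and dorsal somite, averaged 60.5 ± 8.35 in contact-inhibited cells (n = 4), against 256 ± 35.2 in cycling cells (n = 3), a log2 change of -1.83 ± 0.14 (adjusted p = 7.57e-07), and was 257 ± 26.7 in doubly arrested and 249 ± 10.9 in serum-starved cells. GSC, the goosecoid gene, averaged 766 ± 118 in contact-inhibited cells, against 190.4 ± 55.3 in cycling cells (1.94 ± 0.20, adjusted p = 1.13e-05). SCX, the tendon gene scleraxis, averaged 3850.5 ± 188 in doubly arrested, 3625 ± 1436 in contact-inhibited and 3044 ± 216 in serum-starved cells, against 1003 ± 252 in cycling cells, and was called higher in each. HAND2, a gene of posterior limb and heart, was lower in each, at 61.0 ± 7.02, 70.5 ± 10.7 and 59.5 ± 1.91 in that order of groups, against 136 ± 22.9 in cycling cells.

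BMP signals induce DLX and MSX genes in many tissues. Of 20 tested genes of BMP signalling and its response, which include ligands, receptors and antagonists, 10 were called lower in each arrested state. Over all probe sets the share lower was 16% in contact-inhibited, 6.53% in serum-starved and 12.1% in doubly arrested cells. Higher were 4 genes in contact-inhibited (18.8% of all probe sets), 2 in serum-starved (10.1%) and 2 in doubly arrested cells (17.5%). Their median log2 change was -0.43 in contact-inhibited, -0.49 in serum-starved and -0.46 in doubly arrested cells. ID1, the classic early BMP target, averaged 69.2 ± 7.62 in doubly arrested, 95.3 ± 2.92 in contact-inhibited and 101 ± 24.4 in serum-starved cells, against 5668 ± 878 in cycling cells. The ligand gene BMP2 averaged 168 ± 27.5 in doubly arrested, 51.8 ± 5.48 in contact-inhibited and 168 ± 24.5 in serum-starved cells, against 551 ± 38.1 in cycling cells. All of these changes of ID1 and BMP2 against cycling cells were called. The part of BMP signals in the DLX and MSX values was not tested.

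Retinoic acid switches on 3′ HOX genes in the embryo. Of 11 tested genes of its pathway, 2 were higher and 4 lower in contact-inhibited cells (18.8% and 16% of all probe sets). In serum-starved (10.1% and 6.53%) and in doubly arrested cells (17.5% and 12.1%), 1 was higher and 2 lower. ALDH1A3, which makes retinoic acid, averaged 47.1 ± 5.90 in contact-inhibited cells, against 149 ± 32.9 in cycling cells (-1.38 ± 0.17, adjusted p = 5.61e-05). With serum removed it went the other way, at 431 ± 54.1 in doubly arrested and 457 ± 91.6 in serum-starved cells, both called higher than in cycling cells.

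Polycomb and trithorax proteins hold HOX genes silent or active. Of 24 tested genes, 4 were higher and 3 lower in contact-inhibited, 4 and 4 in serum-starved, and 8 and 3 in doubly arrested than in cycling cells. The whole array had 18.8% higher and 16% lower, 10.1% and 6.53%, and 17.5% and 12.1%, in that order. JARID2, which brings Polycomb complex 2 to its targets, averaged 111 ± 16.1 in doubly arrested, 165 ± 15.9 in contact-inhibited and 80.2 ± 4.17 in serum-starved cells, against 43.0 ± 15.7 in cycling cells, all called higher. The serum-starved call of JARID2 was lost without serum-starved replicate 3 (0.71, adjusted p = 0.0614) and with the W-linked covariate (0.79, 0.0889).

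Of 16 tested hedgehog, FGF and Wnt genes of the limb, 3 were higher and 5 lower in contact-inhibited, 5 and 5 in serum-starved, and 4 and 4 in doubly arrested than in cycling cells. The shares of all probe sets higher and lower were 18.8% and 16%, 10.1% and 6.53%, and 17.5% and 12.1%, in that order. WNT5A, a ligand of limb outgrowth, averaged 44.1 ± 2.92 in doubly arrested, 61.9 ± 6.73 in contact-inhibited and 69.9 ± 20.2 in serum-starved cells, against 213 ± 3.03 in cycling cells. SFRP2, a secreted Wnt modulator, averaged 2421 ± 221 in doubly arrested, 514 ± 78.6 in contact-inhibited and 850.1 ± 177 in serum-starved cells, against 103 ± 11.7 in cycling cells. Both were called in every arrested state, WNT5A lower and SFRP2 higher.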

How the data were processed

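RNA was hybridised to 13 Affymetrix chicken arrays, which the labels call biological replicates without naming embryos. The deposited values are PLIER intensities per probe set on a linear scale, made by the authors with Affymetrix Expression Console 1.1, per the submitters' processing notes. Its background and probe options, and whether signals were scaled between arrays, are not given here by any source used. The number of arrays limits the precision.

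Gene names came from the platform annotation. Of 37693 chicken probe sets, 27166 had 1 symbol, 177 several and 10350 none. Positional genes were described by the probe set with the highest mean, and 3 probe sets with several symbols were left out. The 73 genes had 134 probe sets, and 35 genes had more than 1. Other tested probe sets often differed in call from the one described. For contact-inhibited against cycling cells, 9 shared its call, 11 lacked it and 5 were called alone. The same counts were 5, 3 and 0 for serum-starved and 6, 8 and 3 for doubly arrested against cycling cells. They were 2, 10 and 3 for doubly arrested against contact-inhibited cells. The members, the lists and the genes named were chosen with earlier results of these data known. The rule described members called with a log2 change of at least 1 against cycling cells, the 6 with the highest mean and the tested HOX genes, and named up to 4 genes of each context list by adjusted p. Other members were named after their values were seen.

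From the deposited intensity, log2(signal + 16) was tested with limma 3.58.1 (lmFit, eBayes with trend) in R 4.3.3, with 1 model over all 4 groups and no covariate. Probe sets under the 25th percentile of mean level were left out, and p-values were adjusted by Benjamini-Hochberg over the 28270 others. The procedure was tested on simulated data. Alternatives changed scaling, offset, filter, variance model, probe set choice and arrays, and added a replicate block or the W-linked level. Leaving out the first contact-inhibited and serum-starved replicates together was chosen after seeing the data. No arrays held identical values.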

Additional observations from a re-analysis of the deposited data

Results flagged for a closer look

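In contact-inhibited cells, replicate 1 lay far from the other 3 arrays for 6 of the 59 tested genes, where the gap to the nearest array on log2(signal + 16) exceeded Dixon's critical share of the group's range. That is 10.2% of these genes, against 4.67% of all probe sets tested for the same array. Chance passes this limit in about 1 in 20 groups when any array of the group may be the distant one. For a single given array it does so less often. Counted over any array, the shares were 10.2% of these genes and 6.89% of all probe sets tested. The values below are signals. Replicate 1 was lower for HOXA11, with a signal of 283, against 413 to 440.4 in the other contact-inhibited arrays. It was lower for HOXA9, with 233 against 412 to 441. For PITX1 it had 460.0 against 908 to 969, and for LHX8 10.1 against 58.5 to 71.0. It was higher for HOXD12, with 223 against 54.3 to 62.5, and for HOXD13, with 125 against 42.7 to 51.1.

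The effect of serum removal differed between confluent and growing cells for 12 genes, by the interaction term of the limma model. On the log2 scale, the effect in confluent minus that in growing cells was 1.94 for DLX5, 1.59 for HOXB3 and 1.94 for IRX2. It was -2.46 for HOXD8, -1.96 for PITX1, -1.72 for LHX9 and -1.60 for HOXA10-AS. It was -1.47 for HOXD4, -1.08 for HOXD10, -0.97 for PRRX1, -0.78 for SIX5 and -0.75 for HOXA3.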

How the results depend on the processing

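No call changed direction in the settings run, but 3 values that were not called turned sign and were then called. HOXA10 in contact-inhibited against cycling cells was 0.38 as a mean over its probe sets. With the W-linked covariate, HOXB4 in serum-starved against cycling cells was -1.07 and HOXD12 in doubly arrested against contact-inhibited cells was -1.14. Leaving out 1 array at a time gave 16 to 22 called genes for contact-inhibited, 5 to 9 for serum-starved and 8 to 15 for doubly arrested against cycling cells. It gave 11 to 21 for doubly arrested against contact-inhibited cells, 0 against serum-starved cells, 4 to 14 for the interaction and 17 to 26 for any difference. At those ends the background was 11.2% and 23.1% for doubly arrested against contact-inhibited cells, and 6.90% and 13.4% for the interaction. Without contact-inhibited replicate 1, which gave the 22, 9, 15 and 26, it was 35.4%, 20.9%, 33.9% and 41.7%. The 16 without cycling replicate 2 stood beside 31.7%. The 8 without doubly arrested replicate 1 or 2 stood beside 22.9% and 21.7%, and the 17 without contact-inhibited replicate 3 beside 34.5%. Array weights gave 12 genes for serum-starved (27.9% of all probe sets under that setting) and 21 for doubly arrested against cycling cells (45.8%). They gave 27 (35.9%) and 5 (13.1%) for doubly arrested against contact-inhibited and serum-starved cells, and 19 for the interaction (25.2%). The W-linked covariate gave 11 genes for serum-starved against cycling (11.2%) and 9 for doubly arrested against contact-inhibited cells (16.3%). Without cycling replicate 3 and contact-inhibited replicate 1 there were 11 for serum-starved against cycling (21.1%) and 1 for doubly arrested against serum-starved cells (7.14%). With the replicate number as a block the interaction count was 6 (8.10%). Residuals of same-numbered arrays correlated from -0.293 to 0.382 over 18 pairs, so the numbers were not taken as pairs. The cause of these differences was not tested.

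Scaling moved all genes against cycling cells. Centring each array on its median took the share higher among all called probe sets to 41.6% from 54.1% in contact-inhibited, 45.4% from 60.8% in serum-starved and 48.8% from 59.1% in doubly arrested cells, and to 69.7% from 55.2% for the interaction. Quantile normalization gave 49.6%, 51.2% and 49.1% in the same 3 comparisons. The median over all probe sets in contact-inhibited cells was -0.05 when centred and 0.07 as deposited, so small changes of single genes are relative to that shift.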
